A study of Mus musculus with 8 samples.

Results

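The transcripts of 10 genes of the NF-kappaB system were followed in cultured mouse cardiac fibroblasts that had been given an adenovirus carrying Has2 or a control adenovirus carrying green fluorescent protein (GFP). The set was chosen by name and holds 4 subunit genes (Nfkb1, Nfkb2, Rela and Relb) and 6 feedback inhibitor genes (Nfkbia, Nfkbie, Nfkbiz, Tnfaip3, Birc3 and Bcl3), out of 55414 genes listed and 15150 genes with enough counts to test. All 10 passed the filter on low counts in these libraries. Has2 encodes hyaluronan synthase 2, the plasma membrane enzyme that makes the matrix polysaccharide hyaluronan. The comparison asks whether cells forced to express Has2 differ in these genes from cells given the control virus.

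Each virus had 4 libraries, of which replicates 1 and 2 were female and replicates 3 and 4 male. The labels give the strain as C57BL/6J and the genotype as wild type, whereas the protocol describes the fibroblasts as coming from animals homozygous for a floxed Has2 gene; a Cre virus named there was not analysed here. Cells of both groups were plated from 1 heart per flask, treated at passage 2 after 24 h without serum, exposed to virus for 5 h, and collected after 48 h with basic FGF and TGF-beta, each at 20 ng/mL as the protocol reads. All values are therefore from cells under growth factor and TGF-beta stimulation, and no library without a virus was analysed here. The promoter that drives the viral Has2 is not given in the sources used here, and no source says that each culture had an animal of its own. The p-values thus speak of the spread among these libraries, which may be technical. Replicates of the same number carried the same preparation identifier under both viruses and are treated as pairs.

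Libraries held 46981231 to 55795187 counts. Has2 itself stood at 25.2, 7.36, 18.3 and 21.3 CPM (counts scaled by the effective size of the library) in GFP replicates 1 to 4 and at 9533, 8406, 3209 and 4860 CPM in the Has2 replicates, which counts viral and endogenous transcripts together. The 12 fibroblast markers were all expressed and summed to 25800 to 39400 CPM with the GFP virus and 26000 to 40200 CPM with the Has2 virus. The 15 macrophage markers were also all above 1 CPM on average, and summed to 1040 to 2570 CPM and 972 to 2740 CPM. The sums for endothelial, mural, cardiomyocyte, mesothelial and lymphocyte markers were at most 96.8 CPM in any library, and the T cell gene Cd3g was at 0. The cultures are thus fibroblasts by their markers with a macrophage signal in every library, and in such bulk RNA fewer cells of a type cannot be told apart from less RNA per cell.

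NF-kappaB is a family of dimeric transcription factors that wait in the cytoplasm, held by IkappaB proteins, until a signal from a cytokine or pattern receptor leads IkappaB kinase to mark the inhibitor for destruction. The freed dimers enter the nucleus and switch on inflammatory genes, among them the genes of their own inhibitors, which end the response. Rela and the p50 product of Nfkb1 form the classical dimer, while Relb and the p52 product of Nfkb2 serve the slower alternative arm. Because the inhibitor genes are themselves targets, their transcripts are commonly read as a record of recent pathway activity. In cardiac fibroblasts the pathway is known for driving cytokine and chemokine genes after injury.

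The DNA sites that tie the inhibitors to the pathway are short, and they can be read in the promoters of several of the genes. The RefSeq promoter table (build GRCm38.p6) held 7 of the 10 genes, and entries for Nfkb1, Relb and Nfkbiz were missing. The 250 bases before the annotated start were searched on both strands for the kappaB consensus, and overlapping matches were merged. Where a member had several starts (3 for Nfkb2, 2 for Tnfaip3), the most upstream was used. The shares over all promoters count every start. A match stood in 4 of the 7 promoters, those of Nfkb2, Nfkbia, Nfkbie and Tnfaip3, against 2382 of 32851 promoters of this length in the table (7.25%). Nfkb2 and Tnfaip3 each held 2 separate matches, which 0.396% of all promoters did. No match stood in the windows of Rela, Birc3 and Bcl3, which says only that these letters are absent there. The 4 promoters with matches are shown 5′ to 3′ on the gene's strand because they mark the genes as possible targets of the subunits, and capitals mark the matches. They lie at chr19:46304487-46304736 (plus strand), chr12:55492648-55492897 (minus), chr17:45555450-45555699 (plus) and chr10:19015411-19015660 (minus).
Nfkb2: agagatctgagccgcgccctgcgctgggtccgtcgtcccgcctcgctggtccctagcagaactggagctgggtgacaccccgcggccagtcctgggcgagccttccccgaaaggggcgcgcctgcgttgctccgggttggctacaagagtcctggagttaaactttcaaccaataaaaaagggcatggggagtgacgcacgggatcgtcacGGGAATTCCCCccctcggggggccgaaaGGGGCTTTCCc
Nfkbia: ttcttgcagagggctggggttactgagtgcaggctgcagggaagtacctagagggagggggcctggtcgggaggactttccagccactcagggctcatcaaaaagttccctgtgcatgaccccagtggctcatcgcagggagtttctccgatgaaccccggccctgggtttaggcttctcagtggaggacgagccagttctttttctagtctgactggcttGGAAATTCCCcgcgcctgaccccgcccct
Nfkbie: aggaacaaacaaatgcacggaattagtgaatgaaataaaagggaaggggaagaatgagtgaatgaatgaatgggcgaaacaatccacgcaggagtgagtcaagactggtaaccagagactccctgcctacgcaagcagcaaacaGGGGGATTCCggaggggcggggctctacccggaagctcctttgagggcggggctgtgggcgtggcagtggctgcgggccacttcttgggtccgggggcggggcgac
Tnfaip3: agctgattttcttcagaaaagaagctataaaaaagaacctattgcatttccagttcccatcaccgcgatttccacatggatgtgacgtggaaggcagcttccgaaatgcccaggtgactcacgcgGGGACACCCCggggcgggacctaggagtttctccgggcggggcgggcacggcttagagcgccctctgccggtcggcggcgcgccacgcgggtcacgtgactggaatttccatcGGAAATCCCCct
Counted from the start, with -1 as the base before it, the merged match of Nfkb2 runs from -39 to -29 and its other match from -11 to -2. The match of Nfkbia lies at -29 to -20 and that of Nfkbie at -106 to -97. Tnfaip3 has its matches at -125 to -116 and at -12 to -3. A match is a description of the sequence and not evidence that a factor was bound in these cells.

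All 10 transcripts were present in every library. Per kilobase of the longest annotated transcript, Rela was the most abundant at 39.1 ± 3.42 CPM per kb (SD, n = 8 libraries), followed by Nfkbia at 24.9 ± 19.0, Nfkb2 at 22.6 ± 2.15 and Nfkb1 at 19.3 ± 1.77. Bcl3 (13.5 ± 2.62), Relb (9.28 ± 1.27), Nfkbiz (5.97 ± 2.03), Birc3 (5.28 ± 0.36) and Nfkbie (4.67 ± 0.83) came next, and Tnfaip3 was lowest at 2.14 ± 0.39 CPM per kb. The ranges of neighbours in this order overlapped over the 8 libraries, except that Tnfaip3 lay below Nfkbie in all of them. The mean of Nfkbia is carried by 1 preparation, and its median was 15.2 CPM per kb. With the length of all merged exons in place of the longest transcript, Nfkb1 stood at 6.65 CPM per kb and at rank 6, so its place rests on which of its annotated exons the cells use.

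**Figure D1:**
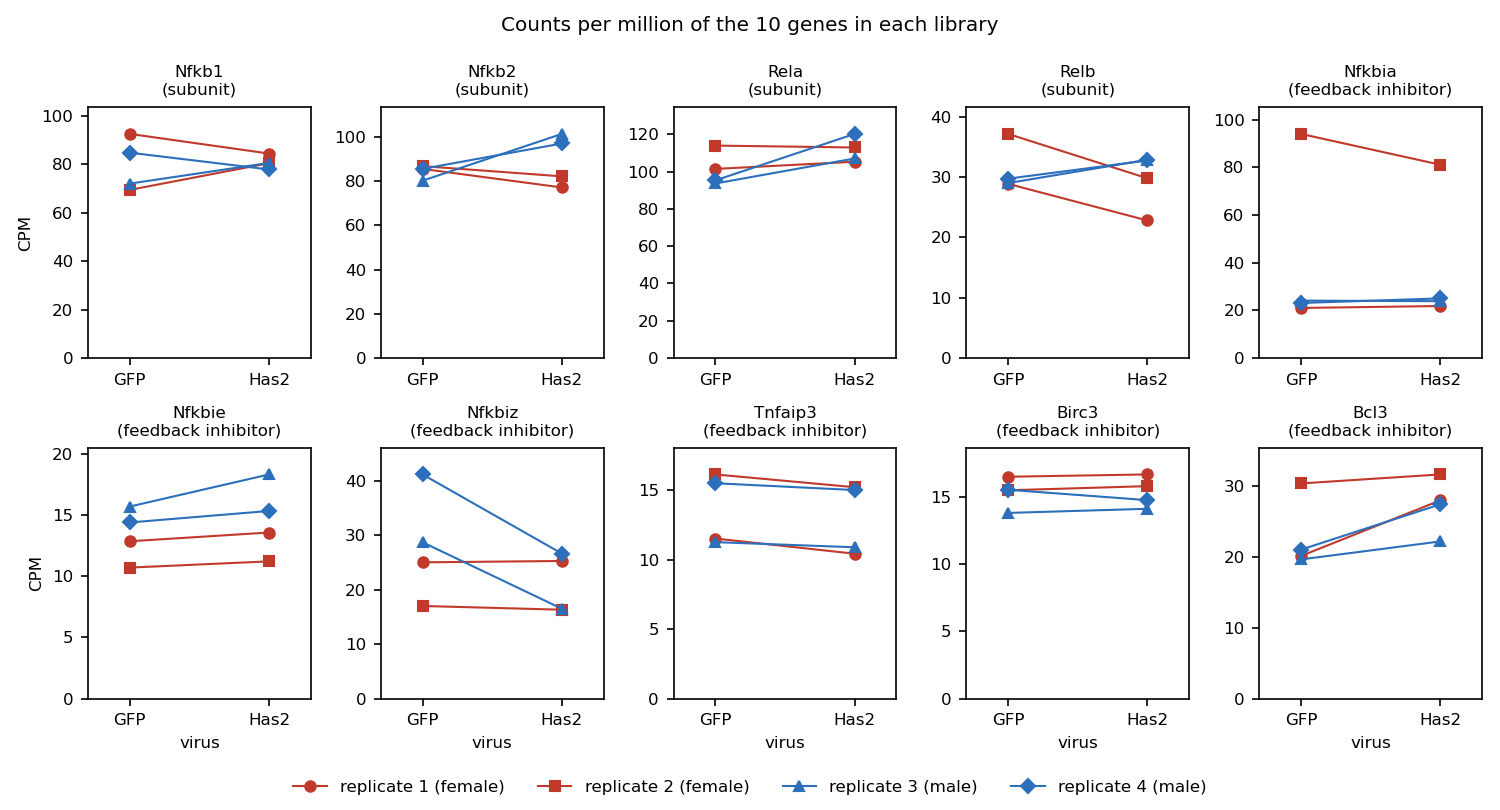
CPM (vertical axes, starting at 0) of the 4 subunit and 6 feedback inhibitor genes in each library, by virus (horizontal axes); lines join the libraries of a replicate number, red for female and blue for male. Nfkbia stands apart in both replicate 2 libraries (94.0 and 81.1 CPM), and Nfkbiz falls from GFP to Has2 in the male pairs while its female pairs are level.

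Over all 8 libraries 0 of the 10 genes passed edgeR's quasi-likelihood test between the viruses at an adjusted p under 0.05. Of all tested genes 0.0066% passed, which is Has2 alone. With the replicate number as a block the count was again 0 of 10, beside the same 0.0066% of all genes. At an unadjusted p under 0.05, edgeR gave 0 of 10 genes without the block, against 2.56% of all genes, and 1 of 10 with it (Bcl3, whose edgeR adjusted p was 0.65), against 7.49% of all genes.

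Rela, the transactivating subunit of the classical dimer, measured 101, 114, 93.7 and 95.3 CPM in GFP replicates 1 to 4 and 105, 113, 107 and 120 CPM in the Has2 replicates. The groups overlapped, with the lowest values in the male GFP libraries. The log2 fold change of Rela was 0.14 (SE 0.11; 95% interval -0.11 to 0.39). Nfkb1, whose precursor p105 is both an inhibitor and the source of p50, measured 92.5, 69.4, 72.0 and 84.7 CPM with GFP and 84.4, 80.4, 80.5 and 77.8 CPM with Has2. The Has2 libraries lay within the range of the GFP libraries, and the log2 fold change was 0.02 (SE 0.12; 95% interval -0.26 to 0.30).

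Nfkb2, the precursor of p52, measured 85.6, 86.9, 80.3 and 85.6 CPM with the GFP virus and 77.2, 82.2, 101 and 97.1 CPM with the Has2 virus. Both male Has2 libraries lay above all GFP libraries, and Has2 replicate 1 lay below all of them. Its log2 fold change over both sexes was 0.08 (SE 0.12; 95% interval -0.19 to 0.35). Relb, the partner of p52, measured 28.9, 37.2, 29.0 and 29.7 CPM with GFP and 22.8, 29.8, 32.9 and 32.8 CPM with Has2. It was again lower with Has2 in the female pairs and higher in the male pairs, and the log2 fold change over both was -0.08 (SE 0.16; 95% interval -0.43 to 0.27).

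Nfkbia encodes IkappaB-alpha, the inhibitor that is destroyed on activation and quickly made again. It measured 21, 94.0, 24.1 and 23.1 CPM in GFP replicates 1 to 4 and 21.8, 81.1, 23.8 and 25.0 CPM in the Has2 replicates. Both replicate 2 libraries stood far above the other 6, whatever the virus. The log2 fold change was -0.10 (SE 0.60; 95% interval -1.44 to 1.24) without the block and -0.02 (SE 0.10; 95% interval -0.26 to 0.22) with it, so pairing narrowed the interval without moving the value from near 0. Replicate 2 averaged 87.5 CPM against 23.1 CPM in the other libraries, a ratio of 3.78. Of the tested genes, 9.35% were higher in both replicate 2 libraries than in all others, and 0.218% were so with at least this ratio.

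Among the other 9 genes, Bcl3 was the sole one that was likewise highest in both replicate 2 libraries, while Nfkbie was lowest in both. The macrophage markers also stood apart there, at 1040 and 972 CPM in replicate 2 against 1870 to 2740 CPM in the other libraries, and the fibroblast markers were at their highest, 39400 and 40200 CPM. The part of these marker levels in the Nfkbia values was not tested. As a share of the sum of squares of log2 CPM, preparation held 99.4% for Nfkbia and the virus 0.00778%. Preparation also held over 90% for Tnfaip3 (96.7%), Birc3 (94.6%) and Nfkbie (92.6%), against 29.8% to 66.4% for the 4 subunits, Nfkbiz and Bcl3. The virus held its largest shares for Rela (36.1%) and Bcl3 (27.3%). There are more preparations than viruses, so preparation takes the larger share on average even without an effect. These shares were not computed over all tested genes.

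Nfkbie encodes IkappaB-epsilon, a further cytoplasmic inhibitor. It measured 12.9, 10.7, 15.7 and 14.4 CPM with GFP and 13.6, 11.2, 18.3 and 15.3 CPM with Has2. Every pair was slightly higher with Has2, but the spread between preparations was wider than the steps within pairs, and the log2 fold change was 0.12 (SE 0.19). Tnfaip3 encodes A20, a ubiquitin-editing enzyme that shuts off signalling at the receptor complex. It measured 11.5, 16.1, 11.3 and 15.5 CPM with GFP and 10.4, 15.2, 10.9 and 15 CPM with Has2. Every pair was slightly lower with Has2, and the log2 fold change was -0.08 (SE 0.20).

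Birc3, an inhibitor of apoptosis protein (cIAP2) that acts as a ubiquitin ligase in this pathway, measured 16.5, 15.5, 13.8 and 15.6 CPM with GFP and 16.7, 15.8, 14.1 and 14.8 CPM with Has2. Its groups covered nearly the same range, at a log2 fold change of 0.00 (SE 0.13; 95% interval -0.29 to 0.29). Bcl3, a nuclear IkappaB protein that works with p50 and p52 dimers, measured 20.1, 30.4, 19.7 and 21.03 CPM with GFP and 28.0, 31.7, 22.2 and 27.4 CPM with Has2. It was higher with Has2 in each pair, although GFP replicate 2 exceeded 3 of the 4 Has2 libraries. For Bcl3 the log2 fold change was 0.26 (SE 0.18; 95% interval -0.14 to 0.66), and 0.27 (SE 0.11) with the block. The exact permutation test of Bcl3 gave p = 0.2 over 4 against 4 libraries, and the exact paired test gave p = 0.125, the smallest that 4 pairs allow; both were two-sided.

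Being higher with Has2 in all 4 pairs, as Nfkbie and Bcl3 were, held for 9.16% of all tested genes, and being lower in all 4, as Tnfaip3 was, for 7.96%. None of the 10 genes had groups that did not overlap, which 2.38% of tested genes had.

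**Figure D2:**
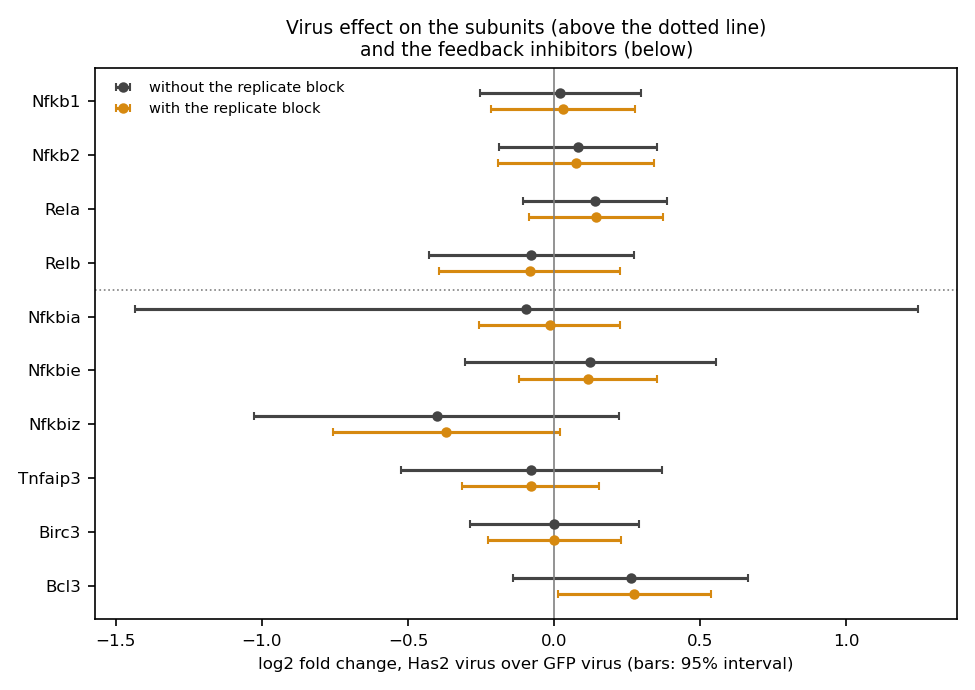
Log2 fold change of Has2 virus over GFP virus (horizontal axis) for each gene with its 95% interval, without (dark) and with (orange) the replicate block. All intervals cross 0 except that of Bcl3 with the block, and the interval of Nfkbia narrows from an SE of 0.60 to 0.10 once replicates are paired.

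Set against each other, the subunits and the inhibitors both had medians near 0. The subunits had a median log2 fold change of 0.05, with 3 of 4 positive, and the inhibitors one of -0.04, with 3 of 6 positive. Over all tested genes the median was -0.01 and 48.6% were positive. Within pairs 1 to 4 the subunit medians were -0.14, -0.05, 0.19 and 0.16, with 1, 1, 4 and 3 of the 4 genes higher with Has2. The inhibitor medians were 0.03, -0.02, 0.01 and 0.02, with 5, 3, 3 and 3 of the 6 genes higher. Among the subunits, Nfkb2 and Relb were lower with Has2 in both female pairs and higher in both male pairs, whereas Nfkb1 was higher in pairs 2 and 3 and Rela in all but pair 2. These are medians of few genes and were not tested as sets.

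Nfkbiz had the log2 fold change farthest from 0 of the 10 genes. It encodes IkappaB-zeta, an atypical nuclear IkappaB protein that is induced by interleukin 1 and Toll-like receptor signals and is needed for a subset of secondary target genes, Il6 among them. It measured 25.0, 17.0, 28.7 and 41.2 CPM in GFP replicates 1 to 4 and 25.3, 16.3, 16.5 and 26.6 CPM in the Has2 replicates. The female pairs were level and the male pairs were lower with Has2, at log2 differences of 0.01, -0.06, -0.80 and -0.63 in pairs 1 to 4. Over all libraries the log2 fold change of Nfkbiz was -0.40 (SE 0.28; 95% interval -1.03 to 0.22) and -0.37 (SE 0.16) with the block; edgeR's adjusted p was 1.0 and 0.65.

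In the fit with the block and a separate virus effect for each sex, Nfkbiz fell in the male pairs, by 0.71 on the log2 scale (SE 0.09; edgeR adjusted p = 0.0002). In the female pairs its log2 fold change was -0.02 (SE 0.09; edgeR adjusted p = 0.91). The difference between the sexes, tested directly as the interaction, was -0.69 (SE 0.13; 95% interval -0.98 to -0.40; edgeR adjusted p = 0.0031). Without the block the same interaction was -0.68 (SE 0.47) and did not pass, with an edgeR adjusted p of 0.569, nor did any other of the 15150 genes (0.0%). With 1 library left out, this unblocked value ranged from -1.06 (without Has2 replicate 4) to -0.35 (without Has2 replicate 1). A fit to the male libraries alone, without the block, gave -0.69 (SE 0.27; edgeR adjusted p = 0.206). The call therefore rests on the pairing. Each sex has 2 pairs, and the preparation identifiers of the sexes begin with different letters, so that sex cannot be told apart from the series of preparation. Has2 itself was at 9533 and 8406 CPM in the female Has2 libraries and at 3209 and 4860 CPM in the male ones. The level of Has2 thus divides along the same line and cannot be told apart from sex either.

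Further calls came from the same paired fit. Relb fell in the female pairs, by 0.33 (SE 0.09; edgeR adjusted p = 0.047), while its male value was 0.16 (SE 0.09; edgeR adjusted p = 0.19). Nfkb2 rose in the male pairs, by 0.26 (SE 0.08; edgeR adjusted p = 0.047), against -0.11 (SE 0.08) in the female pairs. Rela rose in the male pairs by 0.26 (SE 0.08; edgeR adjusted p = 0.043), against 0.02 (SE 0.08) in the female pairs. So 1 of 10 genes passed in the female pairs, where 7.23% of all tested genes did; it was lower, as were 4.83% of all genes, while 2.4% were higher. In the male pairs 3 of 10 passed, where 24.9% of all genes did; 2 were higher, against 5.68% of all genes, and 1 lower, against 19.2%. Relb and Nfkb2 were also the members lower with Has2 in both female and higher in both male pairs, a pattern that 18.7% of tested genes had. The interaction passed for 3 of 10, namely Relb (0.49, SE 0.12; edgeR adjusted p = 0.012), Nfkb2 (0.37, SE 0.12; edgeR adjusted p = 0.038) and Nfkbiz, beside 29.5% of all tested genes, so the count is close to the background. For Rela the difference between the sexes did not pass (0.24, SE 0.12; edgeR adjusted p = 0.15).

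Transcript composition moved with these pairs. Across 15123 genes, Spearman's rho between the change within a pair and GC content was -0.22, -0.17, 0.66 and 0.64 in pairs 1 to 4, and with transcript length 0.25, 0.50, -0.10 and -0.36. Nfkb2 and Rela (each 59.4% GC) and Relb (56.8%) lie above the median of tested genes (49.7%), Nfkbiz (50.1%) lies near it, and Nfkb1 (44.9%) lies below. With a trend of GC content and length removed from every library and the block kept, 10.8% of tested genes passed for the interaction, and of the 10 genes this was Nfkbiz, at -0.74 (SE 0.13; edgeR adjusted p = 0.0076). Its values were then -0.03 (SE 0.09) in female pairs and -0.77 (SE 0.09; edgeR adjusted p = 0.0011) in male pairs.

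For Relb and Nfkb2 the difference between the sexes was nearer to 0 once that trend was taken out, and for Nfkb1 it was farther from 0, at 0.35 against -0.02 before (edgeR adjusted p = 0.137 after). The interaction of Relb was 0.20 (edgeR adjusted p = 0.25) and that of Nfkb2 0.10 (edgeR adjusted p = 0.56), and the male values of Nfkb2 and Rela were 0.03 and 0.02. In the female pairs Relb was at -0.26 (edgeR adjusted p = 0.091). Nfkb1 passed in the male pairs in this fit alone, at 0.34 (edgeR adjusted p = 0.046). The members called were then 0 of 10 in the female pairs, beside 2.98% of all tested genes, and 2 of 10 in the male pairs (Nfkbiz and Nfkb1), beside 12.4%. Bcl3 moved to 0.44 (edgeR adjusted p = 0.055) in female and 0.02 in male pairs. With each replicate number left out in turn in the blocked fit, the interaction of Nfkbiz passed every time, at -0.63, -0.72, -0.60 and -0.75 (edgeR adjusted p = 0.0032, 8.71e-05, 0.0422 and 0.0135 without replicates 1, 2, 3 and 4). That of Relb did not pass without replicate 3 (adjusted p = 0.102) or 4 (0.0624), nor that of Nfkb2 without replicate 1 (0.0592), 3 (0.296) or 4 (0.0861), all by edgeR. Each such fit leaves 1 sex with a single pair, whose spread is assumed to equal that of the others.

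**Figure D3:**
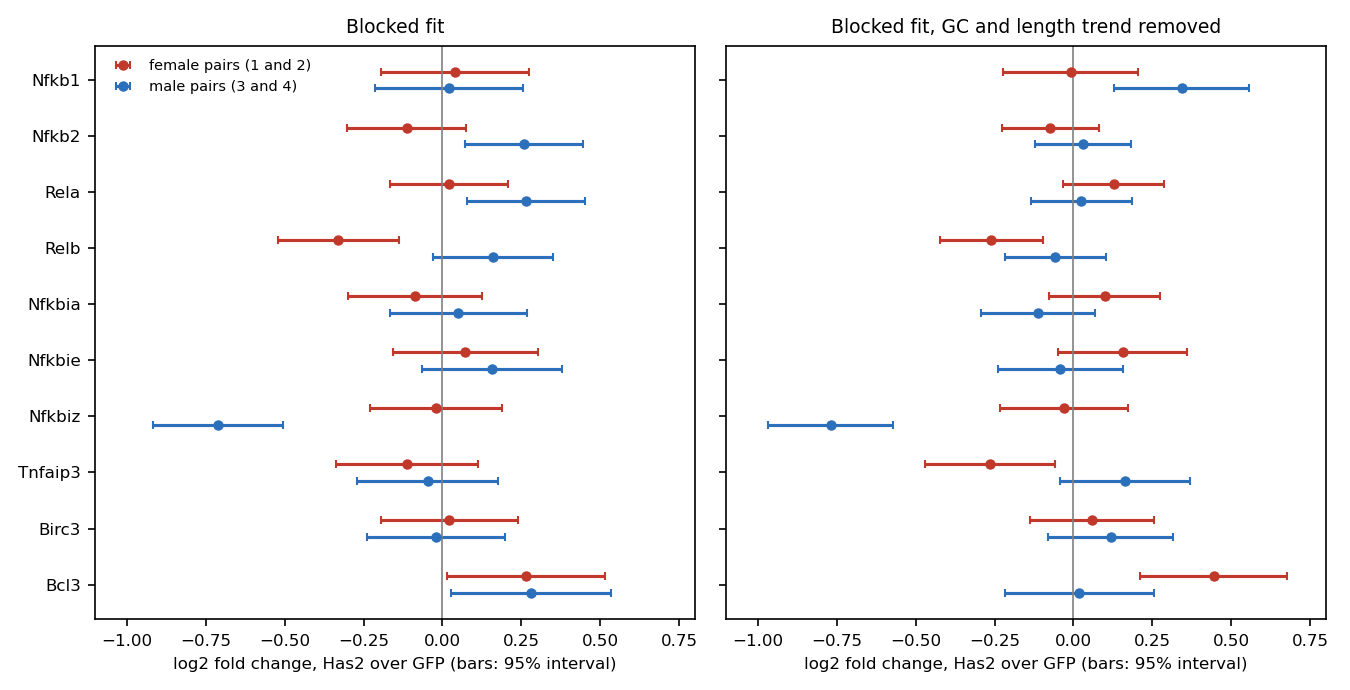
Log2 fold change of Has2 over GFP (horizontal axis) in the female pairs (red) and the male pairs (blue) with 95% intervals, from the blocked fit as it stands (left) and after the trend of GC content and length was taken out (right). Nfkbiz keeps its male value (-0.71 and -0.77) in both panels, while the male values of Nfkb2 and Rela move from 0.26 to 0.03 and 0.02.

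The summed level of the 15 markers of macrophages, cells in which this pathway is also active, was lower with Has2 in the female pairs and higher in the male pairs. The gene of the highest level in this sum was Lyz2, at a mean of 996 CPM. The sums were 2570 and 2410 CPM in GFP and Has2 replicate 1, 1040 and 972 in replicate 2, 1870 and 2110 in replicate 3, and 2370 and 2740 in replicate 4. Singly, 10 of the 15 markers were below 0 in the female pairs (3 called lower by edgeR, 0 higher), and 11 of 15 were above 0 in the male pairs (3 called higher, 1 lower, the lowest at -1.07). Of all tested genes 49.1% were above 0 in the female pairs and 54.0% in the male pairs. Called lower in the female pairs were 4.83% of all tested genes. In the male pairs 5.68% were called higher and 19.2% lower. After correction for GC content and length, the marker median moved from -0.16 to -0.025 in the female and from 0.18 to 0.070 in the male pairs. Then 1 marker was called higher and 2 lower in the female pairs, and 1 higher and 0 lower in the male pairs. In the male pairs the sum has the direction opposite to that of Nfkbiz and the same as that of Nfkb2, Rela and Relb, and its part in those values was not tested.

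Il6, the cytokine gene whose induction needs IkappaB-zeta in other cells, showed the same split between the pairs. It measured 24.3, 13.9, 26.4 and 36.5 CPM with GFP and 25.2, 12.5, 9.72 and 13.7 CPM with Has2. Its log2 differences were 0.05, -0.16, -1.44 and -1.41 in pairs 1 to 4, level in the female pairs and lower in the male ones, as for Nfkbiz. In the blocked fit Il6 fell in the male pairs by 1.43 (SE 0.10; edgeR adjusted p = 6.41e-06), against -0.05 (SE 0.10) in the female pairs. The interaction was -1.38 (edgeR adjusted p = 6.68e-05). Taking out the trend of GC content and length left it at -0.62 (edgeR adjusted p = 0.0133). Over all 8 libraries without the block its log2 fold change was -0.73 (SE 0.35) and did not pass. Of the 27 tested target genes, 5 were called lower in the male pairs, Il6 among them, and 1 higher. Of all tested genes 19.2% were called lower there and 5.68% higher. A link between Nfkbiz and Il6 was not tested.

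**Figure D4:**
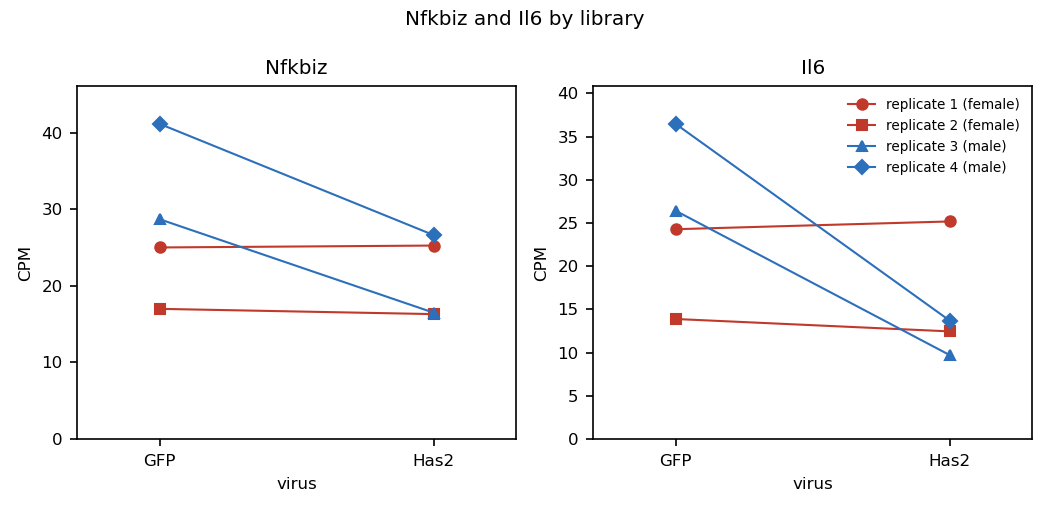
CPM of Nfkbiz (left) and Il6 (right) by virus, with lines joining the libraries of a replicate number, red for female and blue for male. In the male pairs Nfkbiz goes from 28.7 to 16.5 and from 41.2 to 26.6 CPM and Il6 from 26.4 to 9.72 and from 36.5 to 13.7 CPM, while the female pairs are nearly level.

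The rest of the pathway was read through lists of its ligands, receptors, adaptors and kinases, other inhibitors, and target genes. Without and with the block, 0 of 6 measured ligands, 0 of 12 receptors, 0 of 23 adaptors and kinases, 0 of 14 further Rel, IkappaB and inhibitor genes, and 0 of 27 target genes passed edgeR's test between the viruses. Their median log2 fold changes were 0.00, -0.02, 0.01, -0.02 and 0.03, all close to the -0.01 of all tested genes. Of the 10 listed ligands 4 did not pass the filter on low counts and were not tested. Tnfsf12 (TWEAK), a ligand that feeds the alternative arm, was at 0.26 (SE 0.17), and Il33, an alarmin of the interleukin 1 family, at 0.18 (SE 0.28). The ligands Tnfsf11 and Tnfsf13b were at -0.18 (SE 0.34) and -0.10 (SE 0.32). Tnfsf13b was lower with Has2 in all 4 pairs, as were 7.96% of all tested genes. Tnfrsf1a, the main receptor for TNF, was at 0.14 (SE 0.14), and Cd40, a receptor of the alternative arm, at -0.19 (SE 0.20). The receptor kinase gene Irak1, its inhibitory relative Irak3 and the adaptor gene Traf1 were at 0.20 (SE 0.12), 0.24 (SE 0.21) and 0.48 (SE 0.40). Each was higher with Has2 in all 4 pairs, as were 9.16% of all tested genes. They were named for the smallest p of their lists. Traf1 was low, at 0.37 to 1.85 CPM over the libraries.

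Within the sexes, the paired fit called more of these genes in the male pairs, as it did over all tested genes (24.9% against 7.23%, split for males into 5.68% higher and 19.2% lower, and for females into 2.4% higher and 4.83% lower). Of the 12 receptors 1 passed in the female pairs (lower), against 2 higher and 3 lower in the male pairs. After correction for GC content and length these counts were 0 in the female pairs, and 1 higher and 0 lower in the male pairs. Over all 15150 tested genes the corrected fit called 151 higher and 301 lower in the female pairs, and 915 higher and 966 lower in the male pairs. Tlr3 and Tlr4 are receptors for double-stranded RNA and for lipopolysaccharide. In the uncorrected fit they fell in the male pairs by 1.05 (SE 0.14) and 1.07 (SE 0.12), with edgeR adjusted p of 0.00027 and 6.21e-05. Of the 23 adaptors and kinases 1 was higher in the female pairs, and 1 was higher and 6 lower in the male pairs. Corrected, 0 passed in the female pairs, and 3 were higher and 2 lower in the male pairs. The lean towards lower values was thus not kept, nor was it over all tested genes, where 860 higher and 2905 lower became 915 and 966. In the male pairs of the uncorrected fit, Chuk, which encodes the kinase IKK-alpha, fell by 0.90 (SE 0.10; edgeR adjusted p = 5.94e-05). Birc2, which encodes cIAP1 and is the closest relative of Birc3, fell there by 0.81 (SE 0.11; edgeR adjusted p = 0.0002).

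Among the 14 other inhibitors and Rel genes 0 passed in the female pairs, and 2 were higher and 4 lower in the male pairs. Of all tested genes 5.68% were higher and 19.2% lower in the male pairs. With the correction 1 was higher in the female pairs, and 1 was higher and 1 lower in the male pairs, beside the corrected counts over all genes given above. Cyld, a deubiquitinase that restrains the pathway, fell in the male pairs of the uncorrected fit by 0.77 (SE 0.09; edgeR adjusted p = 7.9e-05). Tax1bp1, an adaptor for A20, fell there by 1.01 (SE 0.10; edgeR adjusted p = 2.37e-05). Tnip1, another A20 partner, rose there by 0.34 (SE 0.10; edgeR adjusted p = 0.0265). Once GC content and length were corrected for, the interactions of Tlr3, Tlr4, Chuk, Birc2, Cyld and Tax1bp1 were between -0.32 and -0.10 and did not pass, with edgeR adjusted p of 0.165 to 0.761. The interactions of Nfkbiz and Il6 did pass in that fit, as did those of 10.8% of all tested genes. Interactions that passed there were also 2 higher and 2 lower among the adaptors and kinases, and 1 higher among the 14 other genes. Of the target genes 2 were higher and 2 lower, Il6 among the lower.

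Of the 27 measured target genes, 2 were higher and 4 lower in the female pairs, and 1 was higher and 5 lower in the male pairs, beside the shares of all genes given above. The corrected fit had 3 higher and 3 lower in the female pairs, and 3 higher and 1 lower in the male pairs, beside the corrected counts over all genes given above. The values of single target genes that follow are from the uncorrected fit. Ccl7, a monocyte chemokine, fell in the female and the male pairs, by 0.65 (SE 0.10; edgeR adjusted p = 0.0067) and 0.71 (SE 0.10; edgeR adjusted p = 0.00023). Ccl5, a lymphocyte chemokine, fell in the female pairs by 1.63 (SE 0.22; edgeR adjusted p = 0.0041) and was at -0.57 (SE 0.21; edgeR adjusted p = 0.071) in the male pairs. Mmp13, a collagenase, rose in the female pairs by 1.85 (SE 0.21; edgeR adjusted p = 0.0016) and was at 0.46 (SE 0.20; edgeR adjusted p = 0.12) in the male pairs. Mmp13 and Ccl5 were low, at 1.16 to 4.78 CPM and 1.04 to 3.84 CPM over the libraries. The target genes thus did not move one way together, and neither did the 6 inhibitors.

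**Figure D5:**
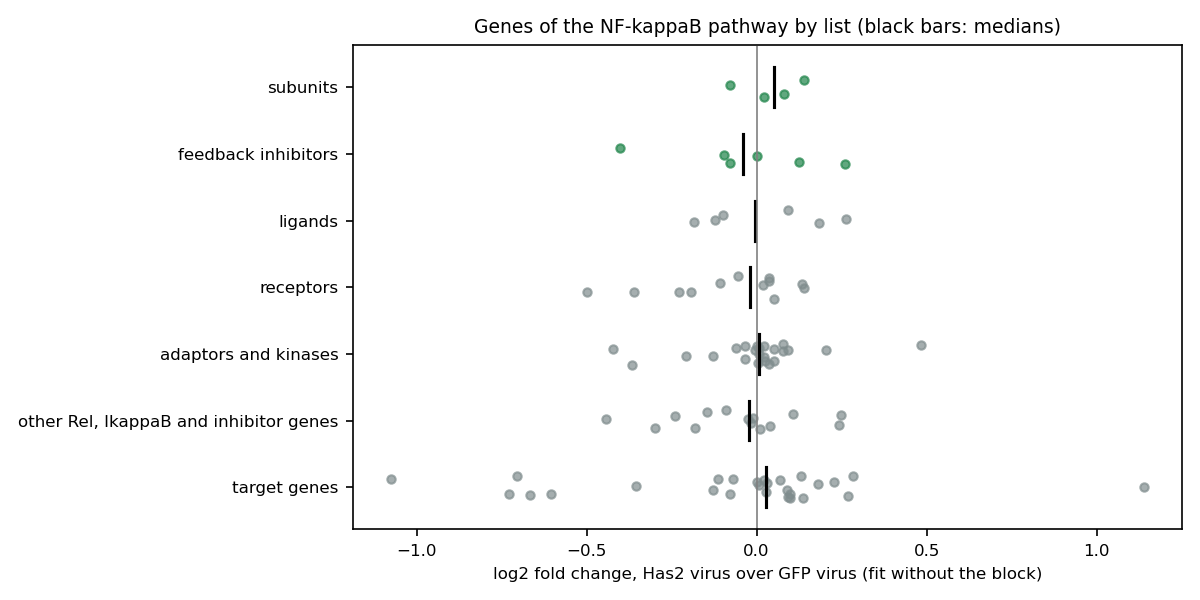
Log2 fold change of Has2 over GFP without the block (horizontal axis) for every tested gene of each list; points are genes, green for the 10 members, and black bars are medians. The medians lie between -0.04 and 0.05, and single target genes reach -1.08 (Ccl5) and 1.14 (Mmp13).

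The genes whose pattern over the 8 libraries was most like the mean of the 10 standardized members were Zfp598 (Pearson's r = 0.94), Nploc4 (0.94), Slc7a5 (0.92), Arhgef2 (0.91) and Lss (0.91), out of 10294 genes compared. These are the highest of many correlations over 8 libraries that share preparations, and they describe the libraries alone. The members did not share 1 pattern: between members Pearson's r ran from -0.76 (Nfkbia with Nfkbie) to 0.81 (Rela with Bcl3). Likeness to their mean is therefore not likeness to each member. The mean member profile itself was lowest in GFP replicate 3 (-0.62 SD units) and highest in Has2 replicate 4 (0.43), with both replicate 2 libraries above 0.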

How the data were processed

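Poly(A) RNA libraries made with a strand-specific kit were analysed from 4 GFP and 4 Has2 cultures, grouped by the labels. Raw counts for each Ensembl gene are what the authors deposited; reads were checked with FastQC 0.10.1 and counted with HTSeq 0.10.0 on build mm39 (GRCm39), per the submitters' processing notes. Neither aligner, annotation nor strand setting is given in the sources used here, so reads of overlapping or antisense genes cannot be assigned with certainty. Symbols, lengths and GC content came from GENCODE M21, which matched 52081 of 55414 identifiers. Promoter sequences are RefSeq's (GRCm38.p6). There were 0 columns of other samples.

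Counts were scaled by TMM and filtered with filterByExpr, and the viruses were compared by edgeR 4.0.16 in R 4.3.3 (quasi-likelihood test, no covariate); genes with a Benjamini-Hochberg adjusted p under 0.05 among 15150 are the calls. Sex by virus was tested likewise. Libraries of 1 number share a preparation identifier in their names, and the correlations of their deviations from their group's mean were 0.576, 0.622, 0.527 and 0.436, so the numbers pair them; blocked values stand beside the results they change. No 2 libraries of a group agreed within sampling noise (chi-square per degree of freedom 45.4 to 368). CPM are counts scaled to the effective library size, and pair differences and exact tests used log2 CPM with a pseudocount of 2. Members had at least 489 counts in every library, so counting error is small beside a wide spread between preparations such as that of Nfkbia. The small steps within pairs of Nfkbie, Tnfaip3 and Birc3 were not set against counting error.

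Alternatives were the block, sex as a covariate, other scalings and filters, leaving out each library or number, DESeq2 1.42.0, limma-voom (limma 3.58.1), each sex alone, and a correction that takes splines of GC content and of log2 length (5 degrees of freedom for each) out of every library. Effects within each sex in the blocked interaction fit, and that fit without each replicate number, were chosen after seeing the data. The members and lists were chosen with earlier results of these data known. Named genes are all members, Has2, and up to 4 genes of each other list with the smallest p and at least 1 CPM on average, plus the 5 genes most like the mean member profile with at least 5 CPM. The test was tried on simulated counts.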

Additional observations from a re-analysis of the deposited data

Results flagged for a closer look

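In 4 of the 20 groups of 4 libraries formed by the 10 genes and 2 viruses, 1 library lay far from the other 3. Chance gives this in about 1 in 20 independent groups. These 20 groups share the same 8 libraries and are not independent, and the share over all tested genes was not computed. The count is therefore not set against a background. All 4 outlying libraries were of replicate 2. Nfkbia stood at 94.0 CPM in the GFP library of that number and 81.1 CPM in the Has2 library. With the GFP virus, Relb was at 37.2 CPM and Bcl3 at 30.4 CPM in replicate 2. Replicate 2 also had the lowest macrophage and the highest fibroblast marker sums, and their part in these values was not tested.

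By the interaction in the fit with the replicate block, the virus effect differed between the sexes for 3 of the 10 genes. The same fit called 29.5% of all tested genes, so the count is close to the background. The difference, male minus female on the log2 scale, was -0.69 for Nfkbiz, 0.49 for Relb and 0.37 for Nfkb2. Without the block 0 of 15150 genes passed. After correction for GC content and length, with the block, the difference passed for Nfkbiz and not for Relb and Nfkb2, beside 10.8% of all tested genes. Sex cannot be told apart here from the series of preparation or from the level of Has2.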

How the results depend on the processing

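Between the viruses edgeR called 1 gene, Has2, without and with the replicate block. DESeq2 called 7, DESeq2 with the replicate block 61, the blocked fit corrected for GC content and length 2, the female libraries 0 and the male libraries 1415. With any library or number left out the count was 1. The fit to the female libraries thus missed even Has2. Of the 1415 genes called in the male libraries, 1412 were lower. These counts of the separate fits do not test a difference between the sexes. For sex by virus the count was 0 without the block, 4470 with the replicate block, 1635 with block and correction, 681 with DESeq2, and 0 to 4 with 1 library left out. In the blocked fit without replicate 1, 2, 3 or 4 it was 4972, 4840, 2658 and 2353.

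Some fold changes turned sign: Nfkb2 was -0.022 after correction, -0.022 with the replicate block as well and -0.097 in the female libraries. Relb was 0.16 in the male libraries. Nfkbia was 0.00075 with DESeq2 and the replicate block and 0.048 in the male libraries. Nfkbiz, at -0.40 over all libraries, was 0.00092 in the female libraries. Birc3 was -0.00070 with sex as a covariate, -0.014 with library totals and -0.026 in the male libraries. With libraries or numbers left out the fold changes ranged over -0.78 to 0.74 for Nfkbia, -0.58 to -0.12 for Nfkbiz, 0.18 to 0.43 for Bcl3, -0.039 to 0.12 for Nfkb1, -0.0077 to 0.18 for Nfkb2, 0.10 to 0.20 for Rela, -0.17 to 0.050 for Relb, -0.0037 to 0.23 for Nfkbie, -0.17 to 0.029 for Tnfaip3 and -0.030 to 0.062 for Birc3. The extremes of Nfkbia, -0.78 and 0.74, came without Has2 replicate 2 and without GFP replicate 2, and leaving out both gave 0.052.

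After correction for GC content and length, without and with the replicate block, the sex difference turned sign for Nfkb1 (0.35 and 0.35), Rela (-0.099 and -0.10), Nfkbia (-0.16 and -0.21), Nfkbie (-0.20 and -0.20), Birc3 (0.057 and 0.059) and Bcl3 (-0.41 and -0.43). With 1 library left out it ranged over -1.06 to -0.35 for Nfkbiz, 0.29 to 0.70 for Relb, 0.28 to 0.42 for Nfkb2, 0.16 to 0.33 for Rela, -0.29 to 0.18 for Nfkb1, -1.24 to 1.45 for Nfkbia, -0.11 to 0.22 for Nfkbie, -0.21 to 0.36 for Tnfaip3, -0.18 to 0.044 for Birc3 and -0.28 to 0.26 for Bcl3. In the blocked fit it also turned for Nfkb1 without replicate 2 (0.15) and 4 (0.15), Nfkbia without 2 (-0.0042), Birc3 without 4 (0.041) and Bcl3 without 2 (-0.19) and 4 (-0.059). Causes were not tested.

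The inhibitor median was -0.0075 with the replicate block, -0.013 scaled without Has2, -0.013 unfiltered, -0.0069 and -0.012 with limma-voom without and with the block, 0.0092 with DESeq2 and the block, 0.025 and 0.026 after correction without and with the block, 0.019 and 0.011 in the female and male libraries, and -0.090 to 0.080 with libraries left out. The subunit median was -0.031 in the female and 0.21 in the male libraries, -0.015 without replicate 3, 0.14 without replicate 1, 0.019 to 0.12 with 1 library left out, and 0.027 to 0.077 under the other tools, scalings, filters and corrections. Per kilobase of merged exons, Rela was at 34.6, Nfkb2 at 19.0, Nfkb1 at 6.65, Bcl3 at 10.1, Relb at 7.82 and Birc3 at 3.07 CPM.

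Each of the 10 genes had at least 489 counts in every library, and the number of pairs, 2 per sex, limits the precision. The median standard error over all genes was 0.23 without and 0.14 with the block.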
